A study of Bos taurus with 38 samples.

Results

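The newborn calves described here were those whose Longissimus dorsi (LD) muscle nearly lacked mRNA of MYH1, the heavy chain of the fast IIx type of myosin. They were 5 of the 38 calves of the series and were chosen by their own MYH1 reads, at under 1300 CPM (read counts scaled to a common library size, with library sizes scaled by TMM), and they were compared with the 33 calves that had more. All 38 calves were born to Angus or Angus-cross cows that had access to a mineral supplement with Na selenite at 120 mg Se/kg. The dams of the control calves (CTR, n = 10) received no Se-yeast, and those of the Se-supplemented calves received Se-yeast boluses, 105 mg Se per week for 13 weeks, in the first (TR1, n = 9), the second (TR2, n = 10) or the third (TR3, n = 9) trimester of gestation. A needle biopsy of the LD muscle was taken from each calf shortly after birth, and poly-A RNA was sequenced. Each calf was a separate animal.

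The 5 low-MYH1 calves were spread over 3 treatment groups. CTR held A2034 and A2035, TR1 held A2040 and A2052, TR3 held A2033, and TR2 held none. They were 4 of the 24 male calves and 1 of the 14 female calves (A2052), and their dams were 5 to 9 years old, the range of the other dams as well. Their total counts were 14118201 to 15240453, within the 12921223 to 17471666 of the other calves. Their TMM factors were 0.999 to 1.35, against 0.887 to 1.13 in the other calves, and the highest, 1.35, was that of A2052.

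Skeletal muscle is a mosaic of fibres, each built around 1 main myosin heavy chain. Slow fibres use MYH7 and rely on mitochondria, whereas the fast IIa, IIx and IIb fibres use MYH2, MYH1 and MYH4, in order of rising speed and rising reliance on glycogen and glycolysis. Each kind carries matching forms of troponin, tropomyosin, myosin light chain and calcium pump. Around birth, the embryonic and perinatal myosins MYH3 and MYH8 give way to the adult forms. In a bulk biopsy, fewer fibres of a type and less mRNA per fibre cannot be told apart.

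MYH1 was at 615 CPM in A2040, 827 in A2033, 939 in A2034, 1024 in A2035 and 1274 in A2052. In the other 33 calves it ran from 5894 to 38520 CPM with a median of 18094. The calf just inside the threshold was A2052 and the calf just outside it was A2067, of TR1. These values chose the calves, so the low-MYH1 calves were not tested against the others on them.

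**Figure D1:**
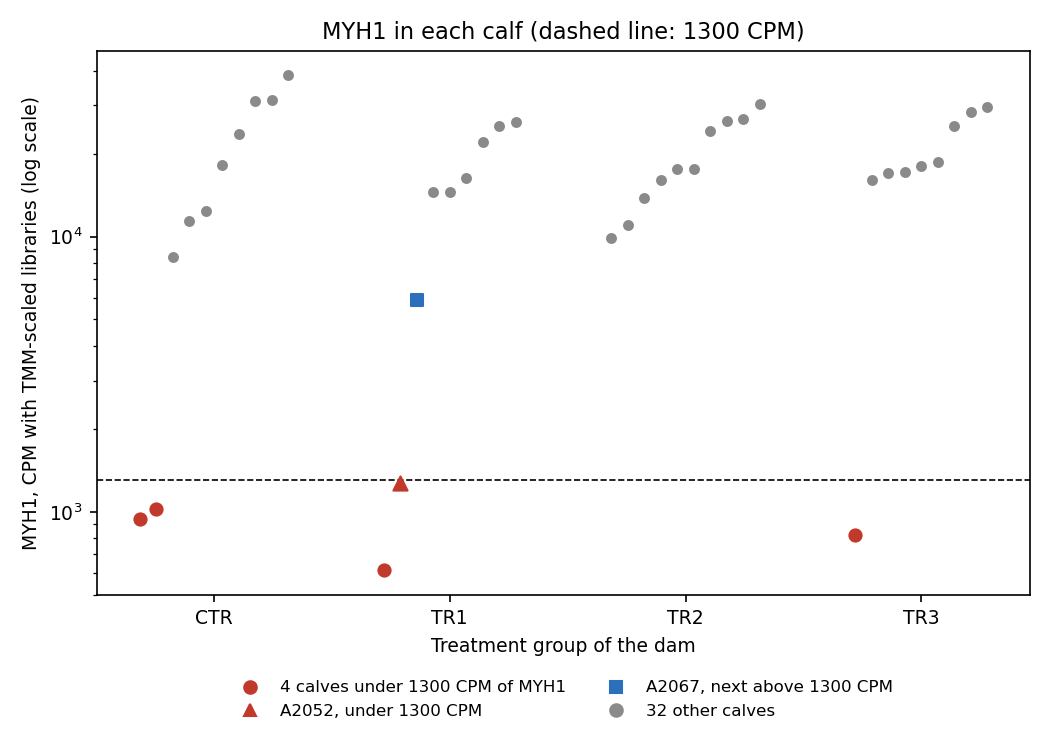
MYH1 in CPM with TMM-scaled library sizes, on a log scale, for each of the 38 calves by treatment group of the dam, each group sorted by value. The 5 calves under the dashed line at 1300 CPM lie in CTR, TR1 and TR3, at 615 to 1274 CPM, and the blue square is A2067 at 5894 CPM.

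A2052 stood apart from the other 4 low-MYH1 calves and is set beside them throughout. It was the highest or the lowest of all 38 calves in 25.8% of the genes tested, whereas the other 4 were in 4.21% to 5.65%. Only A2023, a TR2 calf with 11048 CPM of MYH1, came near that share, with 24.0%, and the remaining 36 calves ranged from 1.34% to 11.8%.

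Besides MYH1, 838 of 12963 genes differed between the low-MYH1 calves and the others (edgeR's quasi-likelihood test with treatment group as a covariate, Benjamini-Hochberg adjusted p under 0.05), a background of 6.46%, and 2770 had an unadjusted p under 0.05 (21.4%). Of these, 442 were lower (3.41%) and 396 were higher (3.05%). The median log2 fold change over all genes tested was 0.02. Without A2052 the test called 562 genes (4.34%), 303 lower (2.34%) and 259 higher (2%). The 2 sets shared 415 genes, all with the same sign, which were 49.5% of the set with all 5 calves and 73.8% of the set without A2052. With plain library sizes in place of TMM the median of all genes shifted to 0.19 and the split became 293 lower and 1524 higher, so the balance of the calls depended on the scaling. Without TR3 calf A2033 the test called 425 genes, 217 lower and 208 higher.

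Symbols were at hand for 2877 of the genes tested, those that the study's own tables list, and 349 of them were called (12.1%; 6.26% lower and 5.87% higher). Without A2052, 4.62% of them were called lower and 2.92% higher. Those tables were made from the same samples, so the counts for the gene lists are to be read against 12.1% as well as 6.46%.

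The sarcomeric myosin heavy chains did not move together. MYH4, the fast IIb myosin, was at 0.428 CPM in A2040, 0.856 in A2033, 0.67 in A2034, 0.656 in A2035 and 0.158 in A2052, which were 3 to 14 reads a library. The other calves had 1.03 to 398 CPM with a median of 41.3. All 5 low-MYH1 calves lay below all 33 others, and the log2 fold change was -7.10 ± 1.41 (SE; adjusted p = 0.00141). MYH4 also ranged widely among the calves that kept MYH1, where it fell as low as 1.03 CPM in A2023.

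MYH2, the IIa myosin, was retained. It was at 19321 CPM in A2040, 17984 in A2033, 22016 in A2034, 24583 in A2035 and 8404 in A2052, against 8711 to 27313 CPM (median 14847) in the others. The first 4 lay above that median and A2052 lay below the lowest of the 33. The log2 fold change was 0.18 ± 0.24 (SE) and did not pass the test (adjusted p = 0.713). STAR counts only uniquely mapped reads, and reads shared by these closely related myosin genes cannot be assigned, so low counts of MYH1 and MYH4 are uncertain to that extent.

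Among the developmental and cardiac myosins, MYH3 was lower in the low-MYH1 calves. It was at 5.38 CPM in A2040, 49.3 in A2033, 3.01 in A2034, 4.07 in A2035 and 18.01 in A2052, against 4.09 to 551 CPM (median 103) in the others. The log2 fold change was -3.07 ± 0.92 (SE; adjusted p = 0.0376), and without A2052 it was -3.37 with an adjusted p of 0.0610. The groups overlapped, since some calves with MYH1 had as little MYH3. Of the 6 developmental muscle genes tested, MYH3 among them, 2 were lower and none was higher, and none passed without A2052. MYH8, the perinatal myosin, had a log2 fold change of -1.03 (adjusted p = 0.421), MYH6, the alpha cardiac myosin, of 1.14 (adjusted p = 0.186) and MYH15 of 1.35 (adjusted p = 0.249). MYH6 reached 1446 CPM in A2034, above all other calves, but was 144 to 300 CPM in the other 4. MYH7, the slow myosin, carried no symbol in the sources and was not analysed here.

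Most of the genes tested of the fast contractile apparatus were lower. Of 13 fast fibre genes tested, 11 were lower, none was higher, and all 13 had a negative log2 fold change, with a median of -1.14. Without A2052, 8 were lower and the median was -0.96. This list was drawn up with earlier results of these data known.

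MYBPC2, the fast form of myosin-binding protein C, was at 948 CPM in A2040, 711 in A2033, 1855 in A2034, 2277 in A2035 and 279 in A2052. The other calves had 2002 to 6019 CPM with a median of 4124. Only A2035 overlapped with them, and the log2 fold change was -1.93 ± 0.28 (SE; adjusted p = 3.09e-05). TPM1, a tropomyosin of fast and cardiac muscle, did not overlap at all: it was at 3605 CPM in A2040, 4431 in A2033, 5666 in A2034, 6043 in A2035 and 2779 in A2052, against 6862 to 19033 CPM (median 11276). Its log2 fold change was -1.45 ± 0.21 (SE; adjusted p = 3.02e-05).

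TNNI2, the fast troponin I that blocks the actin filament at rest, was also separate in the 2 groups. It was at 2845 CPM in A2040, 2265 in A2033, 3150 in A2034, 3706 in A2035 and 1394 in A2052, against 3912 to 8404 CPM in the others, a log2 fold change of -1.13 ± 0.18 (SE; adjusted p = 6.78e-05). PRKAG3, the gamma 3 subunit of AMP-activated protein kinase found in fast glycolytic fibres, was at 9.6 CPM in A2040, 15.6 in A2033, 17.9 in A2034, 15.6 in A2035 and 25.2 in A2052, below the 27.1 to 126 CPM of all others. Its log2 fold change was -1.997 ± 0.29 (SE; adjusted p = 2.82e-05). MYLPF, the fast regulatory light chain, and TNNT3, the fast troponin T, had log2 fold changes of -1.15 and -1.02 (adjusted p = 0.000380 and 0.000544).

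Within the 5 calves, A2052 had the most MYH1 but the least MYBPC2, TPM1, TNNI2, MYLPF and TNNT3, whereas it had the most PRKAG3. In the other 4, TPM1, MYLPF and TNNT3 were in the same order as MYH1, and MYBPC2, TNNI2 and PRKAG3 were not. The CTR calves A2034 and A2035 had the mildest reductions in MYBPC2, TPM1, TNNI2, MYLPF and TNNT3. Within CTR the low-MYH1 mean of MYBPC2 differed from that of the other calves by -1.10 on the log2 scale, within TR1 by -2.70 and within TR3 by -2.69. With 2, 2 and 1 low-MYH1 calves in these groups, the test of whether such differences varied among them called 0 genes (edgeR, smallest adjusted p = 0.0581), with 1716 at an unadjusted p under 0.05, and says little about whether they were alike.

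**Figure D2:**
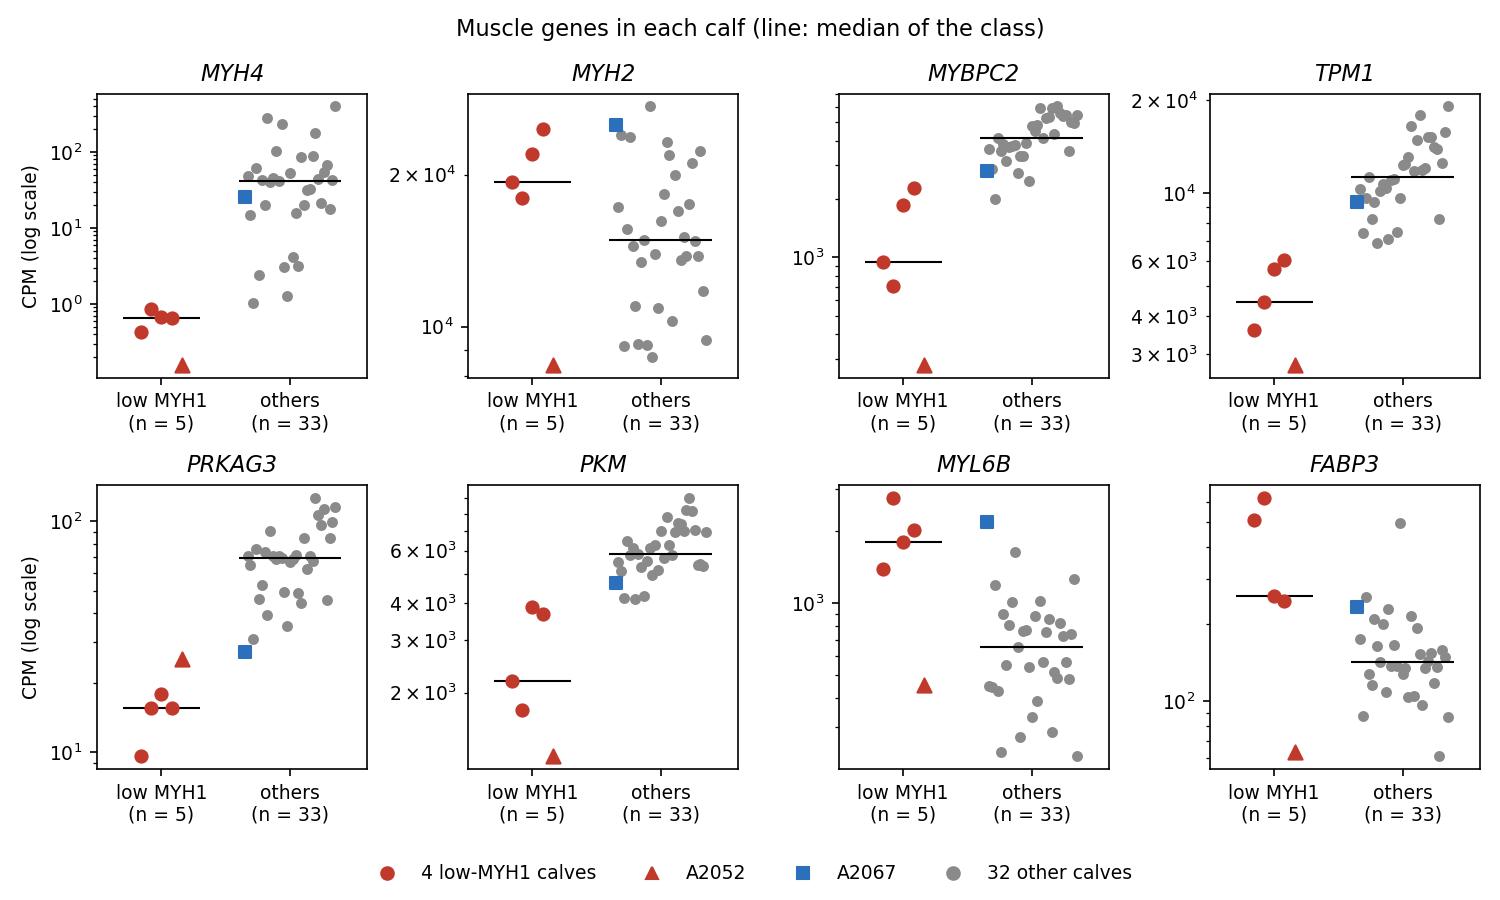
CPM on a log scale of 8 muscle genes in the 5 low-MYH1 calves and the 33 others, 1 point a calf, with the median of each class as a line. MYH4, TPM1, PRKAG3 and PKM do not overlap between the classes, MYH2 does, and in MYL6B and FABP3 the triangle (A2052) lies below the median of the 33 others while the other 4 low calves lie above it.

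Most of the genes tested for glycolysis and glycogen were lower too. Of 22 such genes, 14 were lower, none was higher and 8 did not pass the test. In all, 19 had a negative log2 fold change and 3 a positive one, with a median of -0.87. Without A2052, 11 were lower and 1 was higher. PKM, pyruvate kinase, was at 2181 CPM in A2040, 1752 in A2033, 3879 in A2034, 3683 in A2035 and 1223 in A2052, below the 4122 to 9028 CPM of all others, with a log2 fold change of -1.28 ± 0.20 (SE; adjusted p = 5.41e-05). PHKA1, the muscle alpha subunit of phosphorylase kinase that switches on glycogen breakdown, was at 182 to 372 CPM in the low-MYH1 calves, and only A2034 overlapped with the 360 to 896 CPM of the others (log2 fold change -1.34; adjusted p = 1.90e-05). GPI, glucose phosphate isomerase, had a log2 fold change of -1.66 (adjusted p = 6.47e-05) and PFKM, the muscle phosphofructokinase, of -0.79 (adjusted p = 0.000321).

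Of 5 phosphagen and purine cycle genes, 3 were lower. AK1, the adenylate kinase of fast muscle, was at 430 CPM in A2040, 369 in A2033, 857 in A2034, 865 in A2035 and 243 in A2052, against 691 to 1800 CPM, a log2 fold change of -1.27 ± 0.22 (SE; adjusted p = 0.000297). AMPD1, the muscle AMP deaminase, had a log2 fold change of -1.38 (adjusted p = 0.00516) and CKM, muscle creatine kinase, of -0.48 (adjusted p = 0.0312). CKM lost its call in 6 of 16 alternative settings, among them plain library sizes and the fit without A2033.

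With all 5 calves, the slow, cardiac and oxidative genes that passed the test were all higher, but most did not pass. Of 9 slow and cardiac fibre genes tested, 2 were higher and 7 did not pass the test, although 8 had a positive log2 fold change. The median was 1.06. The list held 16 genes, but MYH7, MYH7B, MYL2, TNNI1, TNNT1, TNNC1 and TPM3 had no symbol at hand and were not analysed. The slow fibre genes were therefore covered only in part. MYL6B, an alkali light chain of slow muscle, was at 1386 CPM in A2040, 2755 in A2033, 1808 in A2034 and 2019 in A2035 but at 451 in A2052, against 227 to 2177 CPM (median 654) in the others. Its log2 fold change was 1.31 ± 0.35 (SE; adjusted p = 0.0160), and the call was lost without A2033. ATP2A2, the calcium pump of slow and cardiac muscle, was at 3498 CPM in A2040, 2736 in A2033, 7323 in A2034, 6070 in A2035 and 2650 in A2052, above the median of 2214 CPM in all 5, with a log2 fold change of 1.06 ± 0.31 (SE; adjusted p = 0.0342). The call of ATP2A2 was lost without A2034 or without A2035, and with dam age and sex added neither MYL6B nor ATP2A2 passed. MYOZ2, the slow fibre calsarcin, did not pass the test (log2 fold change 0.56; adjusted p = 0.197).

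Of 22 oxidative and fatty acid genes, 3 were higher, none was lower, and the median log2 fold change was 0.13. Without A2052, 4 were higher and 1, UCP3, a mitochondrial uncoupling protein chosen after its values were seen, was lower (log2 fold change -1.53; adjusted p = 0.0262, against -0.52 and 0.546 with all 5 calves). FABP3, the fatty acid carrier of oxidative muscle, was at 510 CPM in A2040, 621 in A2033, 257 in A2034 and 245 in A2035 but at 63.7 in A2052, against a median of 143 CPM in the others. Its log2 fold change was 1.24 ± 0.28 (SE; adjusted p = 0.00435) and 1.52 without A2052. PLIN5, a coat protein that ties lipid droplets to mitochondria, was at 28.7 to 46.6 CPM in the 5 low-MYH1 calves, all above the median of 16.04 CPM (log2 fold change 1.15; adjusted p = 0.000761). BDH1, a ketone body enzyme, had a log2 fold change of 1.28 (adjusted p = 0.0170). ACAT1, a mitochondrial thiolase, missed the threshold with all 5 calves (log2 fold change 0.75; adjusted p = 0.0559) and passed without A2052 (1.01; adjusted p = 0.00471).

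**Figure D3:**
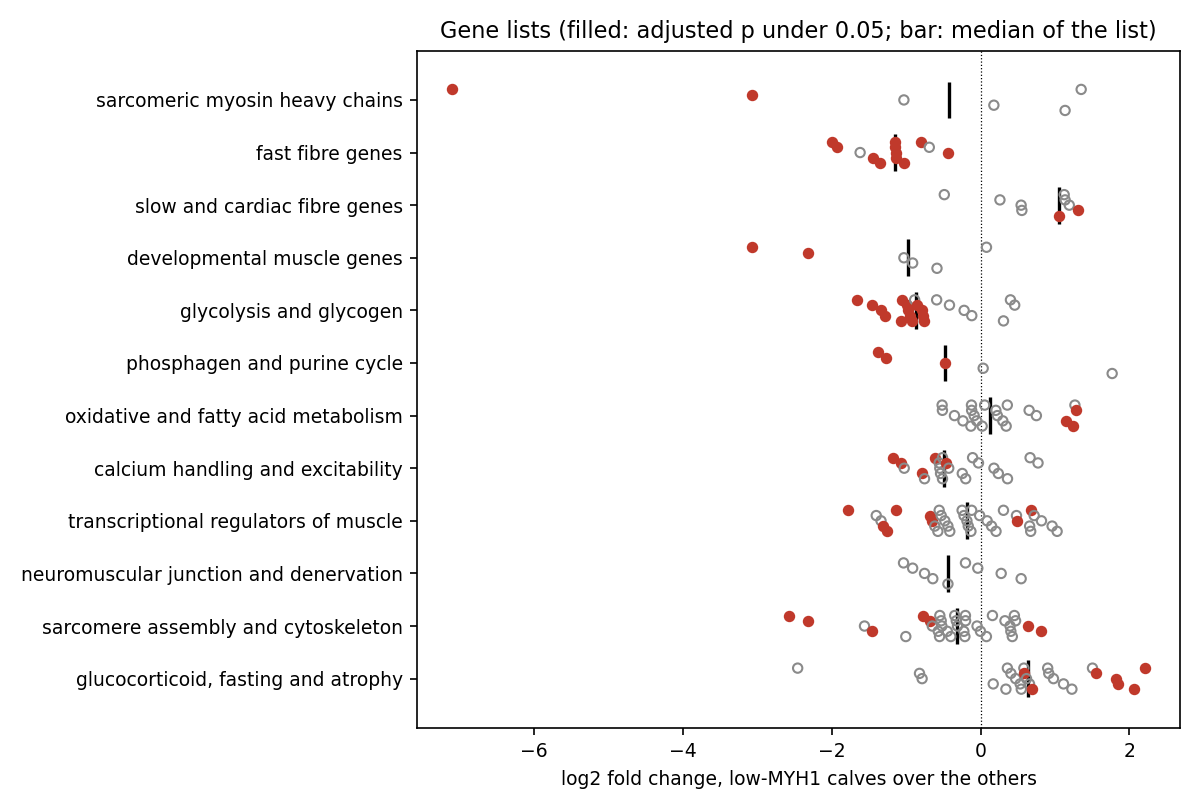
Log2 fold change of each tested gene (low-MYH1 calves over the others) in 12 lists, filled where the adjusted p was under 0.05, with the median of each list as a bar. Calls among fast fibre and glycolysis genes all lie below 0, and those among slow and oxidative genes lie above it.

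Outside contraction and fuel use, 5 of 22 genes for calcium handling and excitability were lower and none was higher. CALM2, a calmodulin gene, was at 138 CPM in A2040, 203 in A2033, 197 in A2034, 194 in A2035 and 73.3 in A2052, against 198 to 426 CPM in the others (log2 fold change -1.07; adjusted p = 0.000270). CALM3, another calmodulin gene, and SYPL2, a protein of the triad junction, had log2 fold changes of -1.18 and -0.79 (adjusted p = 0.00997 and 0.0313). Without A2052, CALM3 (adjusted p = 0.0529) and SYPL2 (adjusted p = 0.132) no longer passed.

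Of 35 transcriptional regulators of muscle, 6 were lower and 2 were higher. MAFA, one of the large MAF factors, which are known to drive fast myosin genes, was at 37.5 CPM in A2040, 37.7 in A2033, 35.3 in A2034, 36.4 in A2035 and 25.6 in A2052, below the 54.1 to 136 CPM of all others. Its log2 fold change was -1.31 ± 0.18 (SE; adjusted p = 1.90e-05). SRF, the serum response factor, had a log2 fold change of -0.67 (adjusted p = 0.00124). None of 9 genes of the neuromuscular junction and denervation passed the edgeR test with all 5 calves. GADD45A, a growth arrest gene, was at 9.32 to 16.7 CPM in 4 low-MYH1 calves but at 94.4 in A2052, against a median of 48.7 CPM in the others, and it passed without A2052 (log2 fold change -1.91; adjusted p = 0.000434).

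Of 34 sarcomere assembly and cytoskeleton genes, 5 were lower and 2 were higher, with a median log2 fold change of -0.32. Without A2052, 3 were lower and 1 was higher, with a median of -0.12. IGFN1, a Z-disc protein of skeletal muscle, was at 807 CPM in A2040, 183 in A2033, 283 in A2034, 377 in A2035 and 1145 in A2052, against 745 to 5658 CPM (median 3043) in the others (log2 fold change -2.58 ± 0.38 SE; adjusted p = 3.28e-05). MYBPH, a myosin-binding protein, CAPN3, the muscle calpain, and ACTC1, the cardiac actin of developing muscle, had log2 fold changes of -1.46, -0.68 and -2.32 (adjusted p = 0.0109, 0.00324 and 0.0462). LMOD2, a leiomodin that lengthens thin filaments, and DES, desmin, were higher by log2 fold changes of 0.81 and 0.64 (adjusted p = 0.0160 and 0.0359). Without A2052, ACTC1 (adjusted p = 0.114) and DES (adjusted p = 0.0789) no longer passed.

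Further genes were among the largest or most significant decreases. MAB21L1, a developmental regulator of the Mab-21 family, was at 0.856 CPM in A2040, 0.55 in A2033, 0.737 in A2034, 0.394 in A2035 and 1.11 in A2052, below the 1.47 to 9.93 CPM of the others, and gave the smallest p of all genes tested (log2 fold change -3.12 ± 0.29 SE; adjusted p = 6.94e-09). DCSTAMP, a transmembrane protein known from the fusion of osteoclasts, had 2 reads in all 5 libraries together, where the others had 0 to 8.55 CPM, and its level was 0.00807 times that of the others (exact 95% Poisson interval on those reads 0.000978 to 0.0292, counting error only; adjusted p = 3.02e-05). CST6, a cystatin, was at 10.1 to 110 CPM in the low-MYH1 calves and 23.4 to 790 CPM in the others, with A2034 and A2035 in the overlap, and had a log2 fold change of -3.15 (adjusted p = 0.00128). ADAMTS8, a secreted metalloprotease, was at 0.895 to 4.72 CPM in the low-MYH1 calves, within the 0.306 to 79.1 CPM of the others (median 23.4; log2 fold change -3.69; adjusted p = 0.00196). KCNG2, a modifier subunit of potassium channels, and GLB1L2, a galactosidase-like protein, had log2 fold changes of -3.60 and -2.93 (adjusted p = 0.00164 and 0.00775).

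Genes of serine and asparagine synthesis were among the 12 largest decreases. ASNS, asparagine synthetase, was at 3.55 CPM in A2040, 15.8 in A2033, 4.22 in A2034, 6.83 in A2035 and 4.27 in A2052, against 3.88 to 238 CPM (median 45.3) in the others (log2 fold change -3.55 ± 0.86 SE; adjusted p = 0.00785). PSPH and PSAT1, of the serine synthesis pathway, had log2 fold changes of -3.23 and -3.16 (adjusted p = 0.0117 and 0.0148). ADM2, a peptide hormone of the calcitonin family, had 2 reads in the 5 libraries, a level 0.0155 times that of the others (exact 95% Poisson interval 0.00188 to 0.0560; adjusted p = 0.0226). The others ranged from 0 to 12.7 CPM of ADM2 with a mean of 1.59 but a median of only 0.235. Without A2052, PSAT1 (adjusted p = 0.0540) and ADM2 (adjusted p = 0.0668) no longer passed. All 5 low-MYH1 calves lay below the medians of these 4 genes, but the groups overlapped, since calves with MYH1 also reached such low levels. Of 28 genes of amino acid synthesis and its stress response, a list made after the values were seen, 4 were lower and none was higher, and the median log2 fold change was -1.10.

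Over all genes, 17 had all 5 low-MYH1 calves below all 33 others (0.131% of the genes tested) and 1 had them above (0.00771%). Those with a symbol, all among the 17 and chosen after their values were seen where not introduced yet, were MYH4, TPM1, TNNI2, PRKAG3, PKM, MAFA, MAB21L1, CRACD, PPAT, KLHL29 and PADI2. CRACD, an actin capping inhibitor, was at 3.48 to 9.59 CPM in the low-MYH1 calves and at 15.7 to 90.9 CPM in the others (log2 fold change -2.77; adjusted p = 1.65e-07). PPAT, which opens purine synthesis, was at 20.4 to 31.5 CPM against 37.7 to 125 CPM (log2 fold change -1.63; adjusted p = 3.17e-06). PADI2, a peptidyl arginine deiminase, was at 51.2 to 235 CPM against 240 to 686 CPM (log2 fold change -1.94; adjusted p = 4.66e-05), and KLHL29, a kelch protein, at 1.69 to 4.96 against 5.05 to 26.6 CPM (log2 fold change -2.19; adjusted p = 5.83e-06).

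The largest increases depended mostly on A2052. Of the 12 largest, NPTX1, ARMC2, CEBPD, EIF4E3, ARID5B, GREB1, FBXO32, SLC7A8 and GALNT15 no longer passed the test without that calf, and SBK2, IRX3 and FNDC4 still did. CEBPD, a C/EBP transcription factor of the stress response, was at 16.6 CPM in A2040, 24.7 in A2033, 26.5 in A2034, 16.5 in A2035 and 688 in A2052, against 9.69 to 151 CPM in the others. Its log2 fold change of 2.21 (adjusted p = 0.0169) became -0.06 (adjusted p = 0.966) without A2052. SLC7A8, an amino acid transporter, was at 720 CPM in A2052 and 8.19 to 16.9 CPM in the other 4, and ARMC2 at 63.7 CPM against 0.656 to 1.54. Without A2052 the log2 fold change of SLC7A8 went from 2.07 to -0.86 (adjusted p = 0.267). That of ARMC2 went from 3.68 to 0.42 (adjusted p = 0.681).

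The same calf set the counts of the glucocorticoid, fasting and atrophy list, of which 7 of 26 genes were higher with all 5 calves and 1 without A2052, with medians of 0.64 and -0.02. FBXO32, the atrophy ubiquitin ligase atrogin-1, was at 159 CPM in A2052 and 5.81 to 31.9 CPM in the other 4. KLF15, a glucocorticoid target, was at 151 CPM in A2052 and 3.28 to 9.64 CPM in the other 4. GABARAPL1, of the autophagy machinery, was at 378 CPM in A2052 and 25.3 to 83.1 CPM in the other 4. TSC22D3, the glucocorticoid-induced leucine zipper, was the 1 gene that held without A2052: it was at 239 to 304 CPM in all 5 low-MYH1 calves, against a median of 172 CPM (log2 fold change 0.59; adjusted p = 0.0121).

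**Figure D4:**
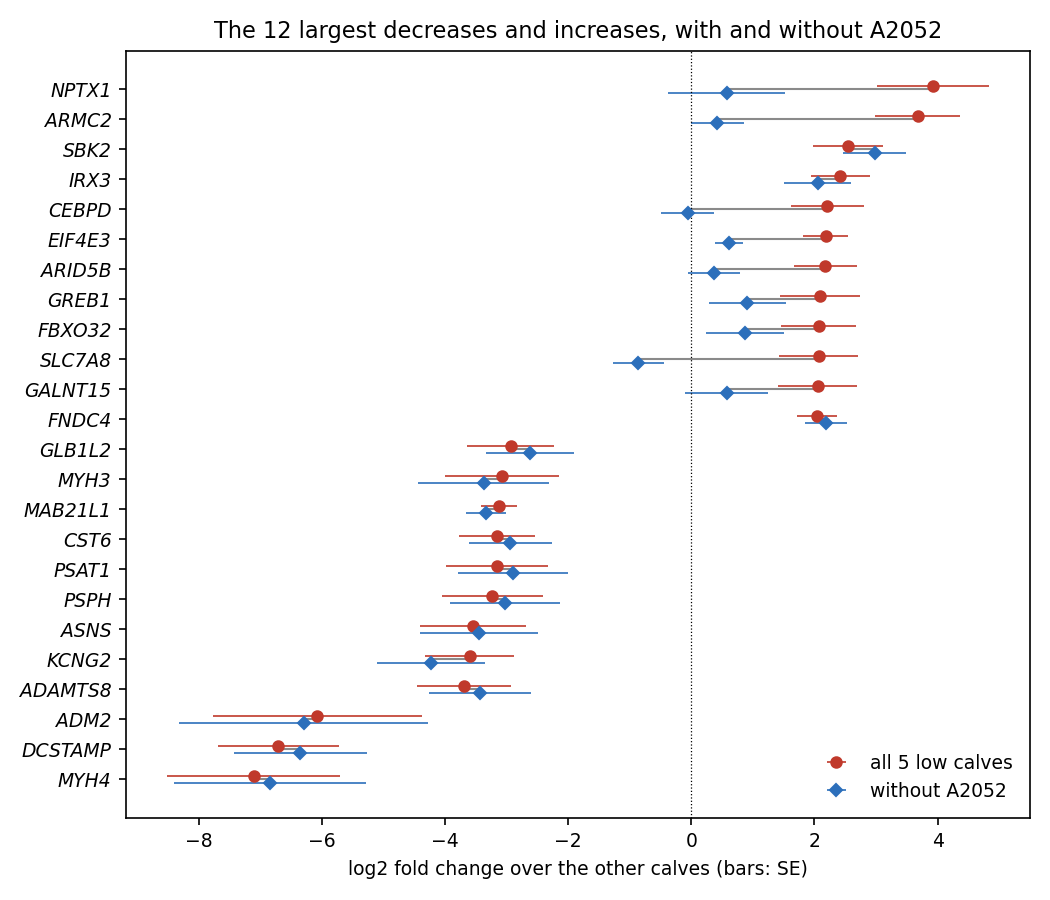
Log2 fold change with its SE for the 12 largest decreases and the 12 largest increases, from the fit with all 5 low-MYH1 calves (red) and without A2052 (blue). All 12 decreases stay below -2.5 without A2052, whereas 9 of the 12 increases fall below 1.

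Some increases were shared by the other 4 low-MYH1 calves and lacking in A2052. SBK2, a kinase gene of striated muscle, was at 6.11 CPM in A2040, 9.29 in A2033, 9.91 in A2034, 8.33 in A2035 and 0.105 in A2052, against a median of 0.790 CPM in the others, with a log2 fold change of 2.54 (adjusted p = 0.00445) and of 2.98 without A2052 (adjusted p = 0.000278). AQP4, the water channel of fast fibre membranes, chosen after its values were seen, was at 156, 124, 154 and 158 CPM in those 4 calves and at 8.80 in A2052, against 6.40 to 118 CPM in the others (log2 fold change 2.00; adjusted p = 0.000689). FNDC4, a secreted fibronectin domain protein, was higher with A2052 included: it was at 2.03 to 8.49 CPM in all 5 low-MYH1 calves, against a median of 1.35 CPM (log2 fold change 2.05; adjusted p = 8.03e-05).

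Positional genes also divided the 5 calves. HOX genes keep, in adult tissue, a record of where along the body axis a cell arose: those numbered low in each cluster mark the front and those numbered 9 or above mark more posterior levels. The 11 HOX and IRX genes with a symbol were taken up after their values had been seen. With all 5 calves 2 of them were lower, 4 were higher and 5 did not pass the test. Without A2052, 4 were lower and 4 were higher. HOXC10 was at 0.122 CPM in A2040, 0.0611 in A2033, 0.536 in A2034 and 0.131 in A2035, but at 38.4 in A2052. The 33 other calves had 1.47 to 64.7 CPM with a median of 33.8, so 4 of the low-MYH1 calves lay below all of them and A2052 lay in their midst. With all 5 calves its log2 fold change did not pass the test (-2.20; adjusted p = 0.129), and without A2052 it did (-7.21; adjusted p = 7.91e-06).

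The same 4 calves stood together in 6 more of these genes. HOXD9 was at 8.74, 8.25, 8.64 and 8.47 CPM in A2040, A2033, A2034 and A2035 and at 30.4 in A2052, against 10.6 to 55.2 CPM in the others (log2 fold change -1.40, adjusted p = 0.000538, and -2.001 without A2052, adjusted p = 1.18e-07). HOXA9 was at 1.53 to 3.01 CPM in the 4 calves and at 37.9 in A2052, and HOXA10 at 0 to 0.0670 CPM in the 4 and at 4.27 in A2052, against medians of 25.0 and 6.40 CPM. With all 5 calves HOXA9 did not pass the test (adjusted p = 0.157). HOXC4 and HOXC5, of the anterior end of their cluster, went the other way. HOXA2 and HOXD1, also numbered low, did not pass the test (log2 fold change -0.21 and 0.07; adjusted p = 0.819 and 0.903). Without A2052 their log2 fold changes were 0.08 and 0.10. HOXC5 was at 9.84, 11.7, 14.9 and 12.0 CPM in the 4 calves and at 2.11 in A2052, against a median of 2.74 CPM in the others (log2 fold change 1.44, adjusted p = 0.00902, and 1.74 without A2052, adjusted p = 0.00147). HOXC4 had a log2 fold change of 1.61 (adjusted p = 0.0117) and of 1.92 without A2052 (adjusted p = 0.00228). IRX5, an Iroquois homeobox gene, was at 1.83 to 3.68 CPM in the 4 calves and at 0.0527 in A2052, and all 33 others had at most 1.31 CPM (log2 fold change 3.45; adjusted p = 0.000219).

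LBX1, a homeobox gene of migrating muscle precursors and a member of the list of regulators, showed the same division. It was at 1.59 CPM in A2040, 0.917 in A2033, 1.87 in A2034, 0.328 in A2035 and 9.59 in A2052, against 2.32 to 13.9 CPM in the others (log2 fold change -1.78, adjusted p = 0.00363, and -2.93 without A2052, adjusted p = 6.62e-07). IRX3 differed, since A2052 had the most, 14.9 CPM, and the other 4 had 2.45 to 6.09. All 5 lay above the median of the 33 others, 0.944 CPM. The log2 fold change of IRX3 was 2.42 (adjusted p = 0.00131), and 2.06 without A2052 (adjusted p = 0.0203). HOXA5, in the middle of its cluster, was at 5.90 to 11.0 CPM in the low-MYH1 calves and 6.89 to 11.7 CPM in the others (adjusted p = 0.910).

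A2067, the calf next above the MYH1 threshold, lay on the side of those 4 calves in the HOX genes that set them apart. It was not always within their range: the 4 had at most 0.536 CPM of HOXC10 and 8.74 of HOXD9, and at least 1.83 of IRX5. A2067 was at 1.47 CPM of HOXC10, 10.6 of HOXD9, 0 of HOXA10 and 2.32 of HOXA9, and the remaining 32 calves had at least 6.59, 24.4, 0.466 and 4.95 CPM. It was also at 14.7 CPM of HOXC5, 1.31 of IRX5, 15.1 of SBK2 and 118 of AQP4, where the remaining 32 calves reached at most 8.91, 0.772, 2.88 and 55.9 CPM. Of the 38 genes in which the 4 calves lay below all 33 others (0.293% of the genes tested), A2067 was the lowest of the 33 in 14, and of the 22 in which they lay above (0.170%), it was the highest in 8. Over all genes tested A2067 was the lowest of the 33 in 3.69% and the highest in 3.93%. Its fast fibre genes were mixed: it had 2789 CPM of MYBPC2, 9320 of TPM1 and 13460 of TNNT3, within the range of the 32, but its 27.1 CPM of PRKAG3 lay below the lowest of the 32, 31.0. Among slow and cardiac genes, it had 2177 CPM of MYL6B, 6624 of ATP2A2 and 824 of MYH6. The 32 reached at most 1628, 3162 and 686 CPM of these, but its 810 CPM of MYOZ2 lay within their range. IGFN1, at 745 CPM, lay below their lowest, 1637, and LMOD2, at 991, above their highest, 849. MYBPH, CAPN3 and DES lay within the range of the 32.

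**Figure D5:**
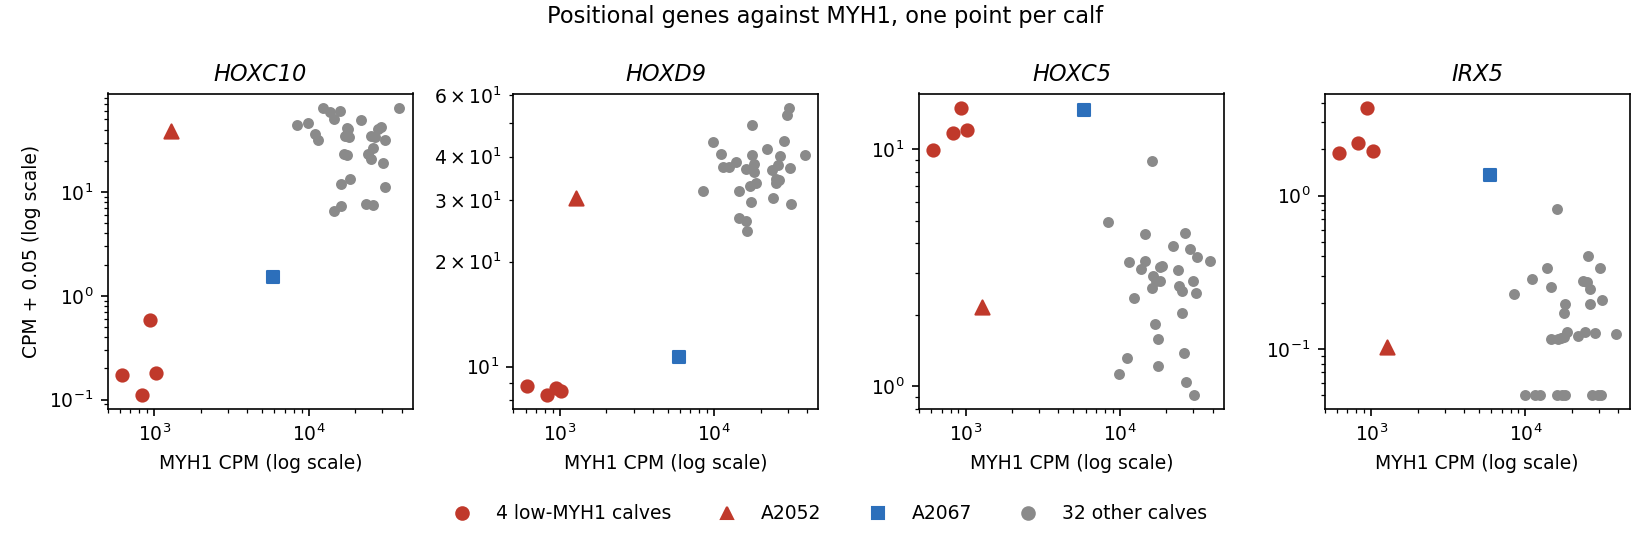
HOXC10, HOXD9, HOXC5 and IRX5 (CPM + 0.05, log scale) against MYH1 (CPM, log scale), 1 point a calf. The 4 red circles and the blue square (A2067) lie on the same side of all 32 grey points in each panel, while the triangle (A2052) lies at the level of the grey points in spite of its low MYH1.

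The biopsies all carry the label of the LD muscle, and the place along the muscle is not given in the sources used here. The part of the place of the biopsy in the low-MYH1 differences was not tested.

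Markers of other cell types gave no calls. None of the 55 markers tested, in 8 lists for immune cells, fibroblasts, adipocytes, smooth muscle and pericytes, endothelium, erythroid cells, Schwann cells and satellite cells, passed the edgeR test with all 5 calves, and 1, S100B of the Schwann list, was higher without A2052. The summed fibroblast markers were at 270 CPM in A2052 and at 586 to 820 CPM in the other 4, against 344 to 1382 CPM in the 33 others. The summed immune markers were at 60.1 to 368 CPM against 29.3 to 295 CPM, and those of smooth muscle at 101 to 332 CPM against 92.4 to 522 CPM. The summed adipocyte markers were at 12.7 to 63.8 CPM in 4 low-MYH1 calves and at 53.0 in A2052. The others had 10.7 to 38.6 CPM, so A2052 and 1 more lay above all 33. Of the 5 genes, 4 had a positive log2 fold change, with a median of 0.79, or 0.36 without A2052. FABP4, a fatty acid carrier, and ADIPOQ, adiponectin, reached 26.3 and 7.03 CPM in A2040, against at most 8.08 and 1.63 CPM in the 33 others. In A2052 most of the sum was LIPE, at 48.5 CPM, against a median of 10.8 CPM in the others. FABP4 (0.895 CPM) and ADIPOQ (0.105 CPM) in A2052 lay below the medians of the others, 1.07 and 0.152 CPM. PPARG, at 2.53 CPM in A2052, lay above the median of 1.41 CPM. The part of fat cells in the low-MYH1 differences was not tested. The 5 summed myofibre markers were lower in range, at 32980 to 84220 CPM against 56630 to 114800 CPM, and 3 of these 5 genes were lower and 1 was higher. No marker was at 0 in all 5 low-MYH1 calves.

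Whether genes also went with MYH1 among the calves that kept it was a separate question, and the slope of each gene on log2 MYH1 CPM was tested in the 33 other calves, with treatment group as a covariate. These calves are also the other arm of the first comparison, so the results of both are only set side by side. A total of 19 of 12963 genes passed (edgeR's quasi-likelihood test, adjusted p under 0.05; 0.147%), 14 with a positive slope (0.108%) and 5 with a negative one (0.0386%), and 1856 had an unadjusted p under 0.05 (14.3%). With dam age and sex added none passed (smallest adjusted p = 0.07; 1502 at an unadjusted p under 0.05), whereas DESeq2 called 131. Without A2067 the test called 540 genes (4.17%), 339 positive (2.62%) and 201 negative (1.55%). Leaving out any other single calf gave 0 to 51 calls, and 0 without A2023, A2057 or A2065.

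In the fast fibre list 12 of 13 slopes were positive, with a median of 0.32 log2 units per doubling of MYH1, against -0.01 over all genes, and 1 passed the test, or 8 without A2067. MYBPC2 had a slope of 0.43 ± 0.08 (SE; adjusted p = 0.0255), AK1 of 0.39 ± 0.07 (adjusted p = 0.0255), CALM3 of 0.54 ± 0.12 (adjusted p = 0.0411) and PADI2 of 0.47 ± 0.09 (adjusted p = 0.0331), and all 4 were lower in the low-MYH1 calves. NPNT, nephronectin, a matrix protein, had a slope of 1.01 ± 0.21 (adjusted p = 0.0333) and a log2 fold change of -2.39 in the low-MYH1 calves (adjusted p = 0.00461); it was chosen after its values were seen. Of the other genes with a symbol that passed, also chosen after their values were seen, PLAAT1 (slope 0.62), GPD2 (0.43), PRKAA2 (0.53) and MUSTN1 (-1.005) did not pass the test in the low-MYH1 calves (adjusted p = 0.981, 0.489, 0.0606 and 0.229). GPD2, a mitochondrial glycerol phosphate dehydrogenase, was at 6.60 to 10.8 CPM in 4 low-MYH1 calves and at 37.2 in A2052, and it passed without A2052 (log2 fold change -1.08; adjusted p = 0.00273). TPM1 just missed the threshold (0.39; adjusted p = 0.0500) and passed without A2067 (0.46; adjusted p = 0.0109).

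Among 22 glycolysis and glycogen genes, 20 slopes were positive with a median of 0.25, none passed with all 33 calves and 8 passed without A2067, all positive. None of the 11 HOX and IRX genes passed in the edgeR test of the 33 calves, and 3 had an unadjusted p under 0.05. HOXD9 had a slope of 0.28 (adjusted p = 0.180), HOXC5 of -0.53 (adjusted p = 0.214) and IRX5 of -0.87 (adjusted p = 0.339). Without A2067 these slopes were 0.14, -0.18 and -0.05, and again none of the 11 passed. MYH4 had a slope of 0.96 (adjusted p = 0.379) and MYH2 of -0.18 (adjusted p = 0.542), neither of which passed.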

How the data were processed

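LD muscle RNA of 38 calves was sequenced from strand-specific, poly-A-enriched libraries. The authors removed adaptors and low-quality reads, mapped the rest to ARS-UCD1.2 (Ensembl annotation, release 100) with STAR 2.7.3a and counted uniquely mapped reads per gene; the deposited values are raw counts for 27607 genes, with 12921223 to 17471666 counts per calf. The strand setting of the counting is not given in the sources used here, so overlapping and antisense genes are uncertain. DESeq2 1.28.1 is also named in the submitters' processing notes.

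Counts were analysed with edgeR 4.0.16 (R 4.3.3). The filter filterByExpr, blind to MYH1, kept 12964 genes, library sizes were scaled by TMM, and MYH1 was left out of the tests, which covered 12963 genes with Benjamini-Hochberg adjustment at 0.05. Calves under 1300 CPM of MYH1 were tested against the others with treatment group as a covariate (glmQLFit, glmQLFTest), and slopes on log2 MYH1 CPM (prior count 2) were tested in the other 33. CPM in the text are TMM-scaled. The SE of each estimate was derived from it and its F statistic (estimate over the square root of F). The fit was tested on simulated data. The split rests on a measured value, is not a treatment, and members, gene lists and tests were chosen with earlier results of these data known.

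Symbols came from the study's tables (2880 IDs; 1 symbol had 2 IDs); other genes have no name here and no coordinates are given. Named genes were the 12 largest increases and decreases among those called, with a symbol and a mean of at least 1 CPM, all tested sarcomeric myosins, and up to 4 genes with the smallest p per list; genes beyond that rule are marked as chosen after seeing values. Among them, the lists of HOX and IRX genes and of amino acid synthesis, and the fits without A2067, were also added later. Alternatives were DESeq2, plain library sizes, removal of MYH1 from the counts, no filter, further covariates, fewer groups, 6 low calves, a robust fit and leaving out calves. Some genes that the naming rule selects are not reported here.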

Additional observations from a re-analysis of the deposited data

Results flagged for a closer look

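Among the 5 low-MYH1 calves, 1 calf lay far from the other 4 in 23 of the 81 genes examined for it (Dixon's test). Chance alone would give about 1 in 20, but many of these genes were chosen for their values in these calves, so the count cannot be read against that share. A2052 was that calf in 21 of them. It had the most of CEBPD (688.5 CPM; 16.54 to 26.52 in the other 4), KLF15 (151.0), GABARAPL1 (378.2), FBXO32 (158.9), ARID5B (384.0), EIF4E3 (218.5), SLC7A8 (720.3), GREB1 (54.61), NPTX1 (43.13), ARMC2 (63.73) and GALNT15 (17.38 CPM). It also had the most of RAPSN (278.2 CPM), which clusters the acetylcholine receptor at the nerve contact, and of GADD45A (94.43). The same held for the muscle regulator LBX1 (9.585 CPM) and for the positional genes HOXA9 (37.87), HOXA10 (4.266), HOXC10 (38.39) and HOXD9 (30.44). It had the least of MAFA (25.65 CPM), AQP4 (8.795) and GLB1L2 (0). The TMM factor of this library was the highest of all 38, and the part of library composition in these values was not tested.

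In A2034, MYH6 was at 1446 CPM, against 144.5 to 300.2 in the other 4 low-MYH1 calves. In A2033, ASNS was at 15.77 CPM, against 3.546 to 6.825. Within TR3, MYH1 itself stood apart in A2033, at 827.0 CPM against 16110 to 29670 in the other TR3 calves, which follows from how the calves were chosen.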

How the results depend on the processing

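The 838 calls stayed within 1.5 times under DESeq2 (1090), without a filter (824), with MYH1 taken out of the counts (840), with dam age and sex added (734), without treatment group (932), in CTR, TR1 and TR3 alone (1140), with the 6 lowest calves (870) and in a robust fit (811). Plain library sizes gave 1817, 293 lower and 1524 higher. Leaving out 1 low-MYH1 calf gave 425 to 890 calls, 217 to 404 lower and 208 to 490 higher, with the fewest without A2033, and 562 (259 higher) without A2052. Leaving out each other calf, chosen after seeing the data, gave 674 to 966. The 19 slope calls became 131 with DESeq2, 33 with library sizes, 0 with dam age and sex added and, chosen after seeing the data, 540 without A2067. The cause was not tested.

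Of 70 called genes followed through the settings, 40 kept direction and call in all 16; 18 lost the call without A2052. Without A2033, 15 lost it: CKM, DES, MYL6B, ACTC1, FABP3, CALM3, SYPL2, LMOD2, TSC22D3, ADM2, GREB1, GALNT15, HOXA10, HOXC4 and HOXC5. Without A2034, 9 did (MYH3, DES, ATP2A2, ACTC1, MYBPH, LMOD2, FBXO32, HOXA10, HOXC4), without A2040, 7 (MYH3, CKM, ACTC1, BDH1, SYPL2, ADM2, HOXA10), and without A2035, 4 (MYH3, CKM, ATP2A2, HOXA10). With dam age and sex added, 9 did, among them both slow fibre calls, MYL6B and ATP2A2. Without A2052, and without A2052 and A2067 (added after seeing the data), the log2 fold change turned to -0.154 and -0.18 in RAPSN, -0.0573 and -0.0604 in CEBPD, -0.108 and -0.0958 in KLF15, and -0.86 and -0.869 in SLC7A8. That of HOXA5 turned to 0.0899 and 0.0999 in those settings, 0.122 with library sizes and 0.057 with the 6 lowest calves, never past the threshold. Over all fits that left out 1 low-MYH1 calf, the values ran from -0.154 to 0.811 in RAPSN, -0.0573 to 2.64 in CEBPD, -0.108 to 2.24 in KLF15, -0.86 to 2.58 in SLC7A8 and -0.144 to 0.0899 in HOXA5. No paired analysis was possible because the replicate numbers only name the calves in accession order.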
